A study of Mus musculus with 6 samples.

Results

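The 42 genes described here encode SR proteins, SR-related splicing factors, CLK kinases and proteins of nuclear speckles. They were selected by gene name from these families, and the list was chosen with the cKO against Ctrl fold changes of these libraries already known. The group differences below are therefore a description and support nothing beyond themselves. All 42 names were found in the deposited tables, in 43 of the 54040 rows, because U2af1l4 is listed under 2 identifiers. All 42 were among the 16928 genes that passed a filter on low counts, and the second U2af1l4 row, with at most 15 counts in a library, did not pass.

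The libraries came from the dentate gyrus of C57BL/6 mice at postnatal day 40, with 3 libraries labelled cKO, from tissue deficient in YTHDF2, and 3 labelled Ctrl, from the negative control tissue. YTHDF2 is a reader of N6-methyladenosine that directs mRNAs to decay. The sources used here do not give the Cre driver, the deleted exons, the genotype of the controls or the number of animals per library. The labels name granule cells but no sorting, and in bulk tissue fewer cells of a type and less RNA per cell cannot be told apart. Whether the replicates are separate animals is not stated, so the errors measure only the spread between these libraries.

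SR proteins carry an RNA-recognition motif and a tail rich in arginine and serine, and they bind exonic enhancers to define splice sites. CLK kinases phosphorylate those tails and release SR proteins from nuclear speckles, the bodies built on SON and SRRM2 where splicing factors are stored. Many messages of this family contain poison exons, whose inclusion leads to nonsense-mediated decay, or detained introns, which hold the transcript in the nucleus. The factors regulate their own and each other's output through these elements.

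Libraries held 16794642 to 19190101 counts, and members were read at between 68 and 19303 counts per library. Levels are in CPM, read counts scaled to a common library size with TMM factors, unless FPKM, the authors' unit that is also scaled to gene length, is named. Group values are mean ± SD over 3 libraries, and log2 fold changes are cKO over Ctrl with their SE. A gene was called when edgeR's quasi-likelihood test gave a false discovery rate under 0.05 over all 16928 genes. The targeted gene Ythdf2 went against the label of 1 library. It stood at 56.8, 56.5 and 54.5 CPM in cKO replicates 1 to 3, at 68.6 and 68.4 CPM in Ctrl replicates 2 and 3, and at 37.9 CPM in the library labelled Ctrl replicate 1. Its log2 fold change was -0.06 ± 0.15 with an edgeR adjusted p of 0.882 (0.00951 to 0.985 over the alternatives), and p was 1 in an exact permutation test (two-sided), in which 3 libraries against 3 cannot go below 0.1. Without the library labelled Ctrl replicate 1 it was -0.29, with an edgeR adjusted p of 0.00951. The main counts and the values of the leading genes are therefore also given without the library labelled Ctrl replicate 1. The granule cell markers Prox1 (504 to 556 CPM) and C1ql2 (234 to 303 CPM) were present in every library.

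Of the 42 genes, 19 rose in cKO, none fell by edgeR, DESeq2 or limma-voom, and 23 were not called. The 19 genes are 45.2% of the members, beside 3.07% of all tested genes called higher and 3.95% called in either direction. At an unadjusted edgeR p under 0.05, 30 members were higher and 1 was lower. The shares of all tested genes at that unadjusted bound are not given here, so these counts have no background beside them. The median log2 fold change was 0.195 over the members and -0.001 over all tested genes. Of the 23 genes that were not called, 17 had positive and 6 had negative values. Among all tested genes, called or not, 49.7% had a positive value. Group ranges did not overlap, with cKO higher, for 29 members (69.0%), including all 19 called genes, against 12.5% of all tested genes. Without the library labelled Ctrl replicate 1, 17 members were called higher, all of them among the 19, where 2.21% of tested genes were called higher, and the median was 0.163. The genes no longer called were Clk3 and Scaf4.

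**Figure D1:**
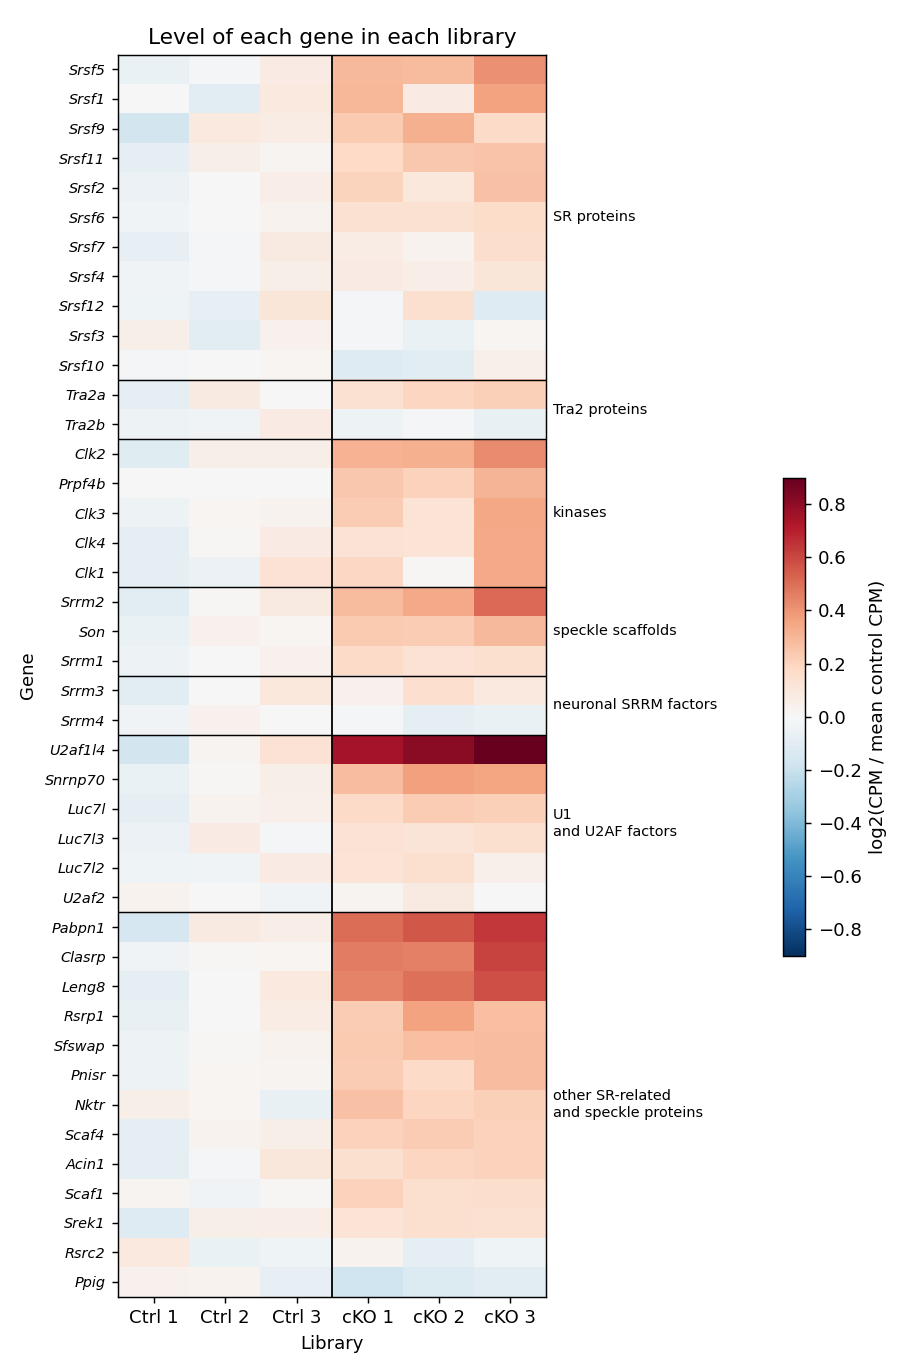
Level of each of the 42 genes (rows, grouped by role) in each of the 6 libraries (columns), as log2 of its CPM over the mean control CPM. Most rows are red in the 3 cKO libraries, strongest in U2af1l4, Pabpn1, Clasrp and Leng8, while Srsf3, Srsf10, Srsf12, Tra2b, Srrm4, U2af2, Rsrc2 and Ppig show no red block.

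The libraries also differed within groups. The library labelled Ctrl replicate 1 held the lowest level of 30 of the 42 genes, and cKO replicate 3 the highest of 24. The members' median log2 ratio to the control mean was -0.05, 0.01 and 0.05 in Ctrl replicates 1, 2 and 3 and 0.18, 0.15 and 0.21 in cKO replicates 1, 2 and 3. Between 32 and 33 members were above every control library in each cKO library. For these counts of members the shares over all tested genes are not given here. The median coefficient of variation between replicates was 3.53% in cKO and 4.61% in Ctrl. Together the members took 0.744% to 0.805% of all counts in the control libraries and 0.897% to 0.939% in the cKO libraries.

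Among the 11 SR proteins, Srsf5 and Srsf11 rose and the other 9 were not called, with a class median of 0.146. Srsf5, an SR protein whose message responds quickly to growth signals, stood at 289.8, 299.6 and 317 CPM in Ctrl replicates 1 to 3 and at 369.8, 368.5 and 401 CPM in cKO. The groups did not overlap, and the log2 fold change was 0.33 ± 0.05, or 0.30 without the library labelled Ctrl replicate 1. Srsf11, an SR-related protein first described as p54, stood at 264, 289 and 282 CPM in Ctrl and at 316, 329 and 332 CPM in cKO. Its log2 fold change was 0.23 ± 0.04 (0.19 without the library labelled Ctrl replicate 1), and again every cKO library was above every control.

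Several SR proteins had smaller or less certain differences. Srsf2 (0.19 ± 0.05), which acts at both exonic enhancers and paused polymerase, Srsf6 (0.15 ± 0.04) and Srsf9 (0.24 ± 0.07) were higher in every cKO library than in every control but were not called. Together with Tra2a and Acin1 they make up the 5 members with an adjusted value between 0.05 and 0.06. Srsf1, the founding SR protein, was read at only 7.42 ± 0.48 CPM in Ctrl and 8.82 ± 0.89 CPM in cKO, with overlap between the groups. Srsf4 and Srsf7 had log2 fold changes of 0.08, Srsf12 of 0.01, Srsf3 of -0.02 and Srsf10 of -0.06. Srsf3, one of the smallest SR proteins and a link between splicing and export, stood at 181, 163 and 178 CPM in Ctrl and at 173, 167 and 176 CPM in cKO, so the groups overlapped throughout.

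The paralogs Tra2a and Tra2b, which bind purine-rich exonic enhancers, were not called. Tra2a stood at 144, 162 and 154 CPM in Ctrl replicates 1 to 3 and at 168, 175 and 177 CPM in cKO, which gave a log2 fold change of 0.18 ± 0.05, or 0.14 without the library labelled Ctrl replicate 1. All cKO libraries were above all controls. Tra2b had 73.0 ± 3.34 CPM in Ctrl and 70.9 ± 1.28 CPM in cKO, with overlapping groups (log2 fold change -0.04 ± 0.05). The difference between the paralogs was not tested.

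All 5 kinases had positive log2 fold changes, from 0.185 to 0.353, and 3 of them rose. Clk2, a dual-specificity kinase of SR proteins, stood at 42.3, 47.3 and 47.4 CPM in Ctrl replicates 1 to 3 and at 56.8, 56.9 and 61.3 CPM in cKO. The log2 fold change was 0.35 ± 0.06 (0.30 without the library labelled Ctrl replicate 1), with no overlap. Prpf4b, a kinase of the tri-snRNP that acts in spliceosome assembly, had nearly identical controls of 172, 171 and 171 CPM and cKO values of 203, 198 and 212 CPM, with a log2 fold change of 0.25 ± 0.04 with or without the library labelled Ctrl replicate 1. Clk3 stood at 65.4, 68.1 and 68.9 CPM in Ctrl and 79.1, 73.6 and 85.9 CPM in cKO (0.24 ± 0.06), and it was no longer called without the library labelled Ctrl replicate 1. Clk4 (0.20 ± 0.06) and Clk1 (0.19 ± 0.07), close paralogs known for detained introns, were not called. Clk1 had the widest spread among the kinases, with 150, 154 and 174 CPM in Ctrl and 181, 160.2 and 202 CPM in cKO, and its groups overlapped.

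**Figure D2:**
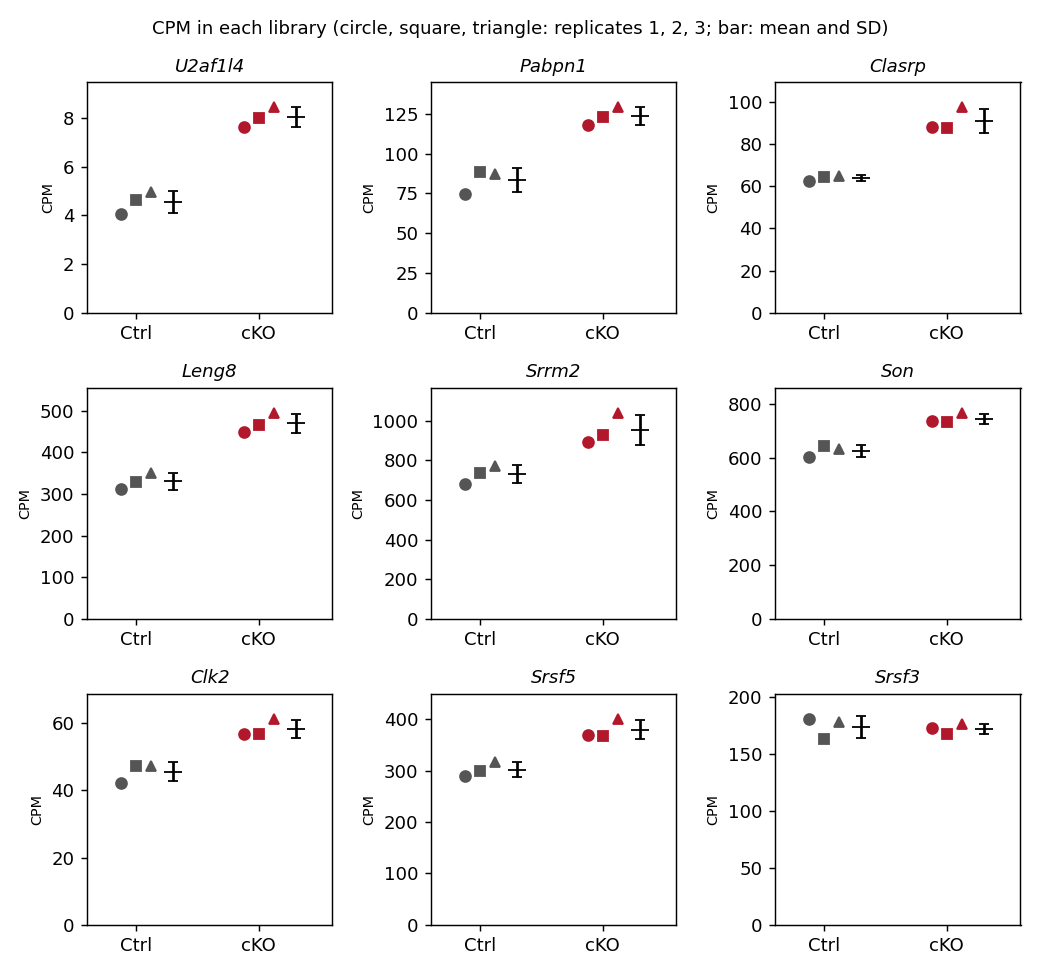
CPM of 9 genes in each library, with control libraries in grey, cKO libraries in red, marker shape for the replicate number, and the mean and SD beside each group. In 8 of the panels every cKO library is above every control, and in the panel of Srsf3 the groups overlap.

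Of the 3 speckle scaffolds, Srrm2 and Son rose and Srrm1 was not called. Srrm2, a giant repeat protein of the speckle core, stood at 682, 738 and 774 CPM in Ctrl replicates 1 to 3 and at 893, 928 and 1040 CPM in cKO. The log2 fold change was 0.38 ± 0.06, or 0.34 without the library labelled Ctrl replicate 1. Son, a scaffold that also supports splicing of weak introns, stood at 601, 642 and 632 CPM in Ctrl and at 737, 731 and 766 CPM in cKO (0.25 ± 0.04, and 0.23 without that library). Neither gene had overlapping groups. Srrm1, a coactivator that bridges exon enhancers and the spliceosome, stood at 169 ± 5.30 CPM in Ctrl and 187 ± 2.77 CPM in cKO (0.15 ± 0.04).

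The neuronal paralogs Srrm3 and Srrm4, which promote inclusion of microexons in neurons, were not called. Srrm3 stood at 63.5, 68.3 and 73.0 CPM in Ctrl and at 70.2, 76.0 and 72.7 CPM in cKO, with a log2 fold change of 0.09 ± 0.06 with overlapping groups. Srrm4 had 71.1 ± 1.74 CPM in Ctrl and 68.6 ± 1.62 CPM in cKO (-0.05 ± 0.05). The value of Srrm3 turned negative, to -0.02, after a correction for GC content and gene length.

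Of the 6 U1 and U2AF factors 3 rose. U2af1l4, which encodes a short relative of the small U2AF subunit, had the largest change of all members but a low level. It stood at 4.06, 4.62 and 4.98 CPM in Ctrl replicates 1 to 3 and at 7.63, 8.01 and 8.46 CPM in cKO, with a log2 fold change of 0.82 ± 0.14 or 1.76-fold (0.74 without the library labelled Ctrl replicate 1). This row rested on 68 to 157 counts per library. It shares 2022 bases of its span with the second U2af1l4 row, which had 48 counts over all libraries. How reads were divided between the rows is not given, so the level is uncertain. The tested row also shares 2534 bases with the gene Igflr1, which lies on the same strand and had 0 counts. Whether the reads came from U2af1l4 or from Igflr1 was not tested. The tested row further shares 284 bases with Psenen, a gamma-secretase subunit gene on the opposite strand. Psenen had 2839 counts against 662 for U2af1l4 and a log2 fold change of -0.24 ± 0.07. DESeq2 gave U2af1l4 no adjusted p.

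Snrnp70, the U1 70K protein that marks the 5′ splice site, stood at 463, 486 and 499.8 CPM in Ctrl and at 586, 624 and 618 CPM in cKO (0.34 ± 0.04, and 0.31 without the library labelled Ctrl replicate 1). The LUC7-like proteins associate with U1 and shape the choice of 5′ splice sites. Luc7l rose (0.20 ± 0.04), whereas Luc7l3 (0.13 ± 0.04) and Luc7l2 (0.10 ± 0.04) were not called. U2af2, the large U2AF subunit that binds the polypyrimidine tract, had 138 ± 3.01 CPM in Ctrl and 141 ± 4.23 CPM in cKO, with overlap.

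The remaining 13 SR-related and speckle genes held 9 of the 19 called genes. Pabpn1, which encodes the nuclear poly(A)-binding protein that controls tail length, stood at 74.9, 88.2 and 87.0 CPM in Ctrl replicates 1 to 3 and at 118, 123 and 129 CPM in cKO. The log2 fold change was 0.57 ± 0.06, or 1.48-fold, and 0.50 without the library labelled Ctrl replicate 1. Clasrp, a partner of CLK4 with an SR-rich region, stood at 62.4, 64.6 and 64.9 CPM in Ctrl and at 88.0, 87.5 and 97.6 CPM in cKO (0.51 ± 0.05, and 0.49 without that library). Both genes were clear of overlap by more than the spread of either group.

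Leng8 stood at 311, 329 and 351 CPM in Ctrl and at 449.96, 465 and 495 CPM in cKO, with a log2 fold change of 0.51 ± 0.05 (0.47 without the library labelled Ctrl replicate 1). Rsrp1, an arginine- and serine-rich protein gene, stood at 336, 352 and 369 CPM in Ctrl and at 412, 452 and 424 CPM in cKO (0.28 ± 0.05, and 0.25 without that library). Sfswap, the mammalian relative of the Drosophila suppressor-of-white-apricot splicing regulator, stood at 189.6, 198 and 201 CPM in Ctrl and at 231, 237 and 238 CPM in cKO (0.26 ± 0.04, and 0.24 without that library). In each of these genes the lowest cKO library was above the highest control.

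The other called genes of this class were Pnisr (0.23 ± 0.04), the cyclophilin Nktr (0.22 ± 0.04), Scaf4, which binds the polymerase tail and limits early termination (0.21 ± 0.05), and Scaf1 (0.17 ± 0.04). Acin1, a component of a complex on the exon junction (0.18 ± 0.05), Srek1 (0.13 ± 0.05) and Rsrc2 (-0.03 ± 0.05) were not called. Ppig, the other cyclophilin with an SR-rich tail, had the lowest value of all members. It stood at 103, 103 and 95.3 CPM in Ctrl and at 88.5, 91.9 and 93.8 CPM in cKO, with a log2 fold change of -0.13 ± 0.05. Every cKO library was below every control, the only member of which this was true, and the gene was not called.

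**Figure D3:**
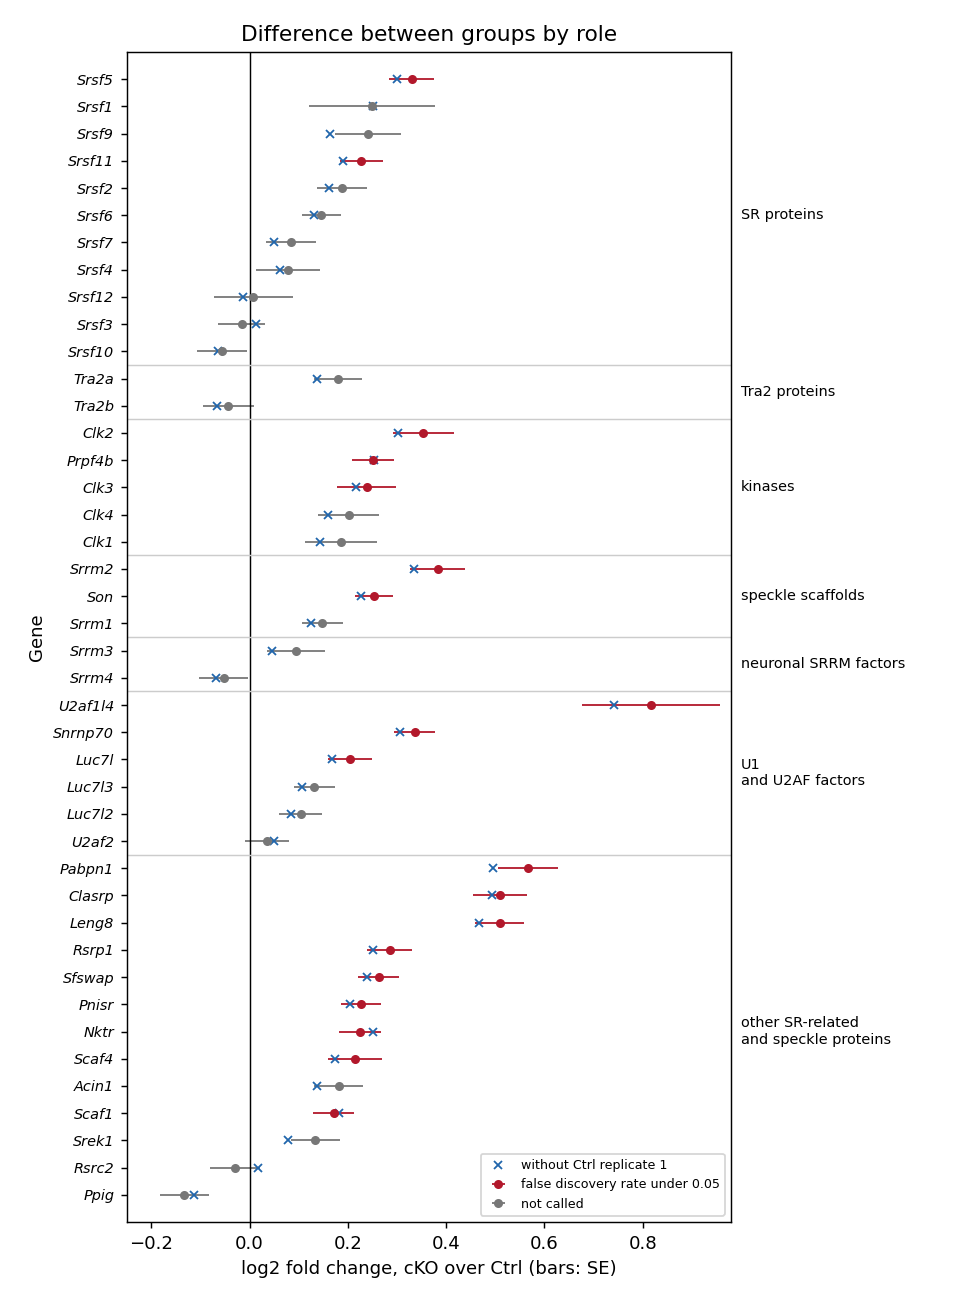
Log2 fold change (cKO over Ctrl) of the 42 genes by role, with SE bars, red for called genes and grey for the others, and crosses for the value without the library labelled Ctrl replicate 1. Called genes lie between 0.17 and 0.82, and only Srsf3, Srsf12 and Rsrc2 change sign without that library.

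Per length, the members spanned a wide range of levels. Mean FPKM over the 6 libraries ran from 1.42 for Srsf1 to 116 for Rsrp1, with a median of 23.8 against 4.61 for all tested genes. After Rsrp1 came Srsf5 (85.1 FPKM), Srrm2 (76.3), Snrnp70 (71.3), Leng8 (62.2) and Srsf7 (54.9). In Ctrl, Srrm2 (66.4 ± 4.36 FPKM) and Snrnp70 (63.2 ± 2.62 FPKM) differed by less than the SD of Srrm2. At the low end U2af1l4 (1.94 FPKM) and Srsf1 stood apart from Srsf4 (7.95), Srrm4 (8.01), Clk3 (8.65) and Srsf12 (8.70), which were close to each other. Among the kinases the order was Prpf4b (22.2 FPKM), Clk1 (20.8), Clk4 (18.7), Clk2 (9.76) and Clk3 (8.65).

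Transcripts classed as decay targets or as retaining an intron are annotated for most of these genes. In GENCODE M21, 34 members (81.0%) had at least 1 transcript classed as a target of nonsense-mediated decay, against 27.6% of tested protein-coding genes. A transcript with a retained intron was annotated for 37 members (88.1%), against 56.9%. Members also had more annotated transcripts of any kind, with a median of 10 against 5. Such transcripts are known for this family, as described above, and the compared genes were not matched for expression level. A transcript with a retained intron was annotated for 18 of the 19 called and 19 of the 23 other members, and a decay target for 15 of the 19 and 19 of the 23. The deposited counts are per gene and do not separate these isoforms. The m6A-type motif GGACT occurred at a median of 0.834 per kilobase of the longest annotated transcript of a member and 1.04 per kilobase in tested protein-coding genes, a count of letters that measures no methylation.

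GC content moved with the group difference across all genes and among the members. Of tested genes with a GC content over 50%, 5.68% were called higher, against 0.82% of those at or under 50%. Members with over 50% GC had 11 of 16 called and a median log2 fold change of 0.25, and those at or under 50% had 8 of 26 called and a median of 0.183. Without the library labelled Ctrl replicate 1 the counts of called members were 9 and 8, beside 2.21% of all tested genes called higher. The shares of all tested genes by GC content are not given for that setting. Among the members, log2 fold change and GC content had a Spearman correlation of 0.42. The median GC content was 52.6% in called and 42.0% in other members. Srsf5 at 40.1% GC, Nktr at 37.0% and Prpf4b at 40.8% were among the called members at or under 50% GC. With offsets in each library for GC and length, 18 members were called higher and the members' median was 0.194. Of the original 19, 16 were still called. Clk3 and Scaf4 were not, nor was Scaf1, the member with the highest GC content (63.0%), whose log2 fold change went from 0.17 to 0.05, while Srsf6 and Srsf9 were called in addition.

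**Figure D4:**
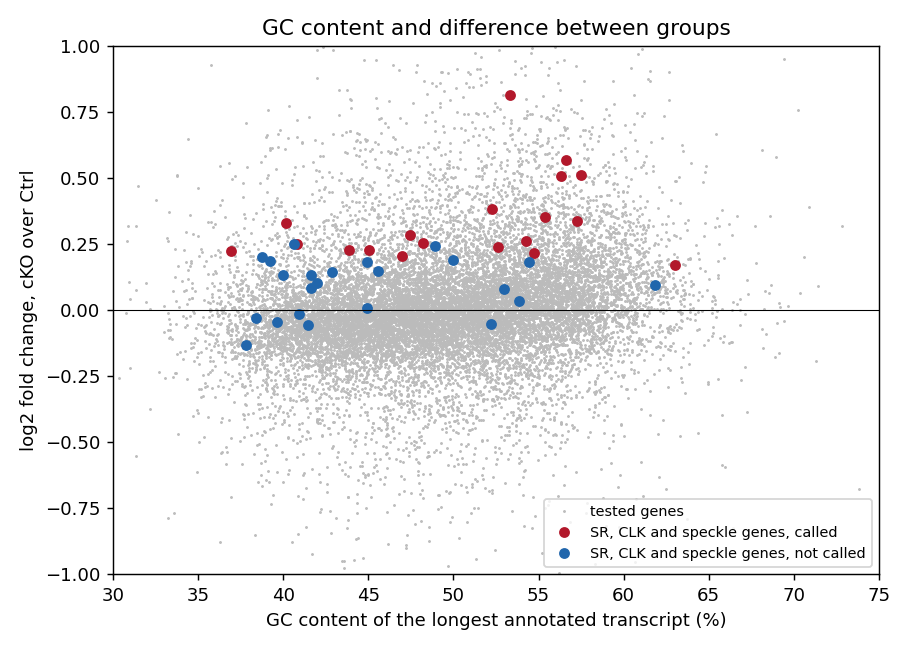
GC content of the longest annotated transcript (x axis, percent) against log2 fold change, cKO over Ctrl (y axis), for tested genes in grey and the members in red (called) or blue (not called). Most members lie above 0 at low as at high GC content, but the called ones have a higher median GC content (52.6%) than the others (42.0%). Outside the axes lie 87 tested genes.

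Promoters are shown for the 3 called members of largest change that have a single listed start, U2af1l4, Pabpn1 and Clk2, beside that of Srsf3, the most abundant such member with a log2 fold change within 0.05 of 0. The sequences cover 250 bases before to 50 after the RefSeq start on GRCm38.p6, 5′ to 3′ on the plus strand, at chr7:30563090-30563389, chr14:54893893-54894192, chr3:89164545-89164844 and chr17:29032410-29032709 in that order. Capitals mark matches on either strand to the CCAAT box, spelled CCAAT, the GC box, spelled GGGCGG, an ETS site, spelled CCGGAAG, the CRE, spelled TGACGTCA, and the TATA box, spelled TATAAA.
U2af1l4: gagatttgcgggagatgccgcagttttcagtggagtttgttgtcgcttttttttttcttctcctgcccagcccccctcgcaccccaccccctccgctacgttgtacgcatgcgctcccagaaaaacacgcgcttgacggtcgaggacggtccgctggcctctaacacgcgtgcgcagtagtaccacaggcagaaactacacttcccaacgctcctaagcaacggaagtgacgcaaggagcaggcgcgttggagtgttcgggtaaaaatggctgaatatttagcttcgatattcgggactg
Pabpn1: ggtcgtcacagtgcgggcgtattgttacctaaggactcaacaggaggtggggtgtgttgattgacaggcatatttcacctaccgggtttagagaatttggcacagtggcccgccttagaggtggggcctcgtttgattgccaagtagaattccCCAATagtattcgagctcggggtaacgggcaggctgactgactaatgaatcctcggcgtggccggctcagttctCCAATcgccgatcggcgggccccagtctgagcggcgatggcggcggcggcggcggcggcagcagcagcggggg
Clk2: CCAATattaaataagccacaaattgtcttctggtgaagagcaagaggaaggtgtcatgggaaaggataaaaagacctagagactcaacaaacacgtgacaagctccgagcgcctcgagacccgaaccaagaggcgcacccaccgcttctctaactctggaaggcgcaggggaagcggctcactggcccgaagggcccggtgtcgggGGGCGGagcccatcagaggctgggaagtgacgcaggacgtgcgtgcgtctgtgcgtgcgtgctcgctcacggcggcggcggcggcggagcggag
Srsf3: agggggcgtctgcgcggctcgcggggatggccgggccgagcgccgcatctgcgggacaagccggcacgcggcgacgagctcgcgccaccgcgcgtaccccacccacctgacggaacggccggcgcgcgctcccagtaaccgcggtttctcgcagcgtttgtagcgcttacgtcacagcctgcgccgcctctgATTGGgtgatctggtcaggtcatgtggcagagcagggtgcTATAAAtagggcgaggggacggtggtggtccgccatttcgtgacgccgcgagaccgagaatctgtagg
The window of U2af1l4 held none of these letters, that of Pabpn1 held CCAAT at 2 places, that of Clk2 held CCAAT and the GC box, and that of Srsf3 held CCAAT on the minus strand and TATAAA. Promoters were listed for 38 of the 42 members. Counting any listed start of a gene, the GC box was found in 76.3% of them against 68.0% of 10839 tested protein-coding genes, CCAAT in 39.5% against 42.7%, the ETS letters in 31.6% against 18.3%, the CRE in 5.26% against 3.50% and TATAAA in 5.26% against 8.70%. In the 30 members with a single listed start, the ETS letters were found in 20%, against 17.6% of 8569 such protein-coding genes. Each motif was counted on its own, also where matches share bases, and a match is a description of the window only.

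Other genes of RNA processing were read from 4 further lists. Of 45 further SR-related, speckle and exon junction factors, 6 rose, none fell and 39 were not called, with a median log2 fold change of 0.06. The nuclear cap factor gene Srrt (0.36 ± 0.06), the speckle cyclin Ccnl2 (0.35 ± 0.05), Sugp2 (0.22 ± 0.05) and Fnbp4 (0.19 ± 0.05) were among those that rose. Of 43 tested core spliceosome genes, Lsm5 rose (1.31 ± 0.26) from a low level of 1.03 CPM, Snrpg fell (-0.44 ± 0.11) and 41 were not called, with a median of -0.03. Of 33 tested hnRNP and neuronal splicing factors, Tial1 (0.27 ± 0.04), Hnrnph1 (0.20 ± 0.04) and Tia1 (0.17 ± 0.04) rose, Hnrnpk fell (-0.16 ± 0.04) and 29 were not called, with a median of -0.01. None of the 10 factors of nonsense-mediated decay was called by edgeR, DESeq2 or limma-voom, and at an unadjusted edgeR p under 0.05, 2 were higher and 1 lower. The kinase Smg1 had 0.12 ± 0.05. Without the library labelled Ctrl replicate 1 these lists held 4, 1, 2 and 0 genes that rose and 0, 1, 0 and 0 that fell, in the same order.

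Of 12 long noncoding RNAs listed as nuclear, 5 rose and 7 were not called, with a median log2 fold change of 0.323, and without the library labelled Ctrl replicate 1 the count was 4 and the median 0.287. Malat1, an abundant RNA of nuclear speckles, rose from 1798 to 2276 CPM (0.34 ± 0.05), and Miat (0.35 ± 0.05), Firre (0.34 ± 0.04) and Snhg11 (0.31 ± 0.06) rose too. The 12 RNAs summed to 3614 to 4035 CPM in the control libraries and 4565 to 4960 CPM in the cKO libraries.

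**Figure D5:**
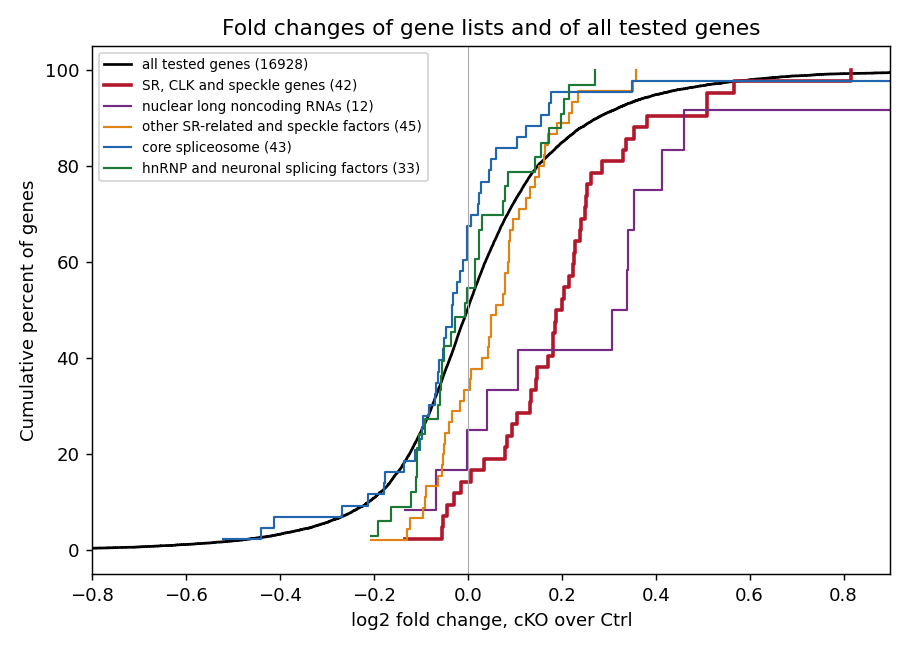
Cumulative percent of genes (y axis) up to a given log2 fold change, cKO over Ctrl (x axis), for all tested genes and for 5 lists, with the number of genes in brackets. The curve of the 42 genes (median 0.195) and that of the 12 nuclear long noncoding RNAs (0.323) lie to the right of all tested genes (-0.001), and 164 tested genes lie outside the axis.

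The summed microglial and astrocyte markers and the share of mitochondrial reads were lower in every cKO library than in every control. Mitochondrial transcripts took 4.60% to 5.19% of counts in Ctrl and 4.21% to 4.44% in cKO. Of 10 microglial markers 5 fell (median -0.273), and their summed level was 414 to 449 CPM in Ctrl and 358 to 377 CPM in cKO. Of 8 astrocyte markers 3 fell (median -0.136), with sums of 5831 to 5983 CPM in Ctrl and 5451 to 5464 CPM in cKO. Without the library labelled Ctrl replicate 1, 3 microglial markers fell, and 3 astrocyte markers fell while 1 rose. Without that library the granule cell markers held 1 that rose and 2 that fell, with a median of -0.087, and the markers of CA1, CA3 and mossy neurons held 1 that rose, with a median of 0.215. Of 10 granule cell markers Pitpnm2 rose and Stxbp6 fell (median -0.04), with sums of 3332 to 3544 CPM in Ctrl and 3436 to 3609 CPM in cKO. Of 9 markers of CA1, CA3 and mossy neurons 2 rose, and none of the markers of oligodendrocytes, endothelial and mural cells, interneurons, immature neurons, choroid plexus or blood (39 tested in all) was called by edgeR, DESeq2 or limma-voom, with 1 higher and 5 lower at an unadjusted edgeR p under 0.05. The 5 blood markers had a median of -0.638, and without the library labelled Ctrl replicate 1 the median was -0.892 and the hemoglobin gene Hbb-bs fell (-0.89 ± 0.22). No marker was at 0 counts over all libraries. The part of these shifts in the values of the splicing genes was not tested.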

How the data were processed

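The authors deposited raw gene counts and FPKM values for 54040 genes in 6 libraries. The submitters' processing notes name the build GRCm38, featureCounts 1.5.0-p3, StringTie 1.3.3b and HISAT2 2.0.5. The sources used here do not give their roles, the annotation release or the strand setting. Per the labels' protocols, libraries were made from Trizol total RNA with an NEBNext Ultra kit. Columns were matched to samples by name, with 0 left unused, and groups came from the titles. The gene length listed in the deposited table entered only a correction.

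The test on counts was run with edgeR 4.0.16 in R 4.3.3 (filterByExpr with a minimum count of 10 and a minimum total of 15, TMM, glmQLFit and glmQLFTest, group as the only term), with Benjamini-Hochberg adjustment over 16928 genes and a threshold of 0.05. The common biological coefficient of variation was 5.67%. The SE is the log2 fold change over the square root of F. The test was tested on simulated data. Replicates differed by a chi-square per degree of freedom of 2.71 to 4.70, so none was a duplicate. GENCODE M21 matched all 43 member rows, 38 of them at identical positions. Members with values in every library are the 14 called with the largest change and, in a role class with none, the most abundant. Those of Srsf3, Clk1 and Ppig were added after their values were seen. Other lists name up to 4 called genes of smallest p, or members of highest CPM. The members and lists were chosen with earlier results of these data known.

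Alternatives were each library left out in turn, a replicate block, offsets for GC and length (loess span 0.3), DESeq2 1.42.0, limma-voom (limma 3.58.1), upper-quartile or RLE scaling, protein-coding genes alone, no low-count filter, a filter of 1 CPM in 3 libraries, a fold of at least 1.2, and limma-trend on FPKM after adding 0.1 or 1 and taking log2.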

Additional observations from a re-analysis of the deposited data

How the results depend on the processing

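The number of members called higher was 19 with RLE, upper-quartile scaling, limma-voom and the 1 CPM filter, 18 with GC and length offsets, 24 with protein-coding genes only, and 25 with DESeq2 or no low-count filter. It was 9 with log2(FPKM + 0.1), 9 with log2(FPKM + 1) and 9 with a fold of at least 1.2, and 13 to 17 when a library was left out. No alternative called a member lower. The share of all tested genes called higher was 2.88% with RLE, 2.87% with upper-quartile scaling, 2.98% with limma-voom and 3.43% with the 1 CPM filter. It was 1.91% with the offsets, 4.09% with protein-coding genes only and 3.32% with DESeq2. It was 2.35% with no low-count filter, 2.0% with the fold bound, and 0.549% and 0.473% with log2(FPKM + 0.1) and log2(FPKM + 1). When a library was left out it was 1.09% to 2.52%. All genes called, 668 in the main test, were 1155 with no low-count filter, 423 with the offsets, 110 and 95 with log2(FPKM + 0.1) and log2(FPKM + 1), 404 with the fold bound, and 214 (without cKO replicate 3) to 535 without a library. The members' median was 0.163 to 0.230 without a library. The 19 called members had positive values in each of these alternatives. Leaving aside the fold bound, 9 were called in each alternative that gave them an adjusted p. Of these 9, Prpf4b (1.190-fold), Son (1.192-fold) and Sfswap (1.199-fold) fell short of the fold bound of 1.2. DESeq2 gave no adjusted p for 2 members, U2af1l4 and Srsf1. Ythdf2 ran from -0.293 to 0.0687 without a library. Leaving out a library, Srsf12 ran from -0.0644 to 0.0673, Srsf3 from -0.0646 to 0.0122 and Rsrc2 from -0.0603 to 0.0171. Srsf3 turned to 0.0039, 0.012 and 0.0011 without cKO replicate 2, Ctrl replicate 1 and Ctrl replicate 3 and to 0.021 with the offsets, Srsf12 to -0.064, -0.013 and -0.030 without cKO replicate 2, Ctrl replicate 1 and Ctrl replicate 2, Rsrc2 to 0.017 without Ctrl replicate 1, and Srrm3 to -0.022 with the offsets; the cause was not tested. With the replicate number as a block 808 genes were called, and 25 members were called higher, beside 3.57% of all tested genes. Same-numbered libraries correlated by only 0.0914, 0.018 and 0.0085, and not every library correlated best with its own number. The numbers were therefore not taken as pairs. Counts of 68 to 157 limit U2af1l4, and reads shared with overlapping genes cannot be separated without the strand setting.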

Other observations

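Of the 42 genes, 24 overlap another gene of the deposited table, and in 10 an overlapping gene has more than 5% of the member's counts. Of 24 overlapping genes that were tested, 2 rose and none fell, beside 3.07% of all tested genes called higher and 3.95% called in either direction. The long noncoding RNA gene Gm26890 shares 5002 bases with Clasrp on the same strand and rose from 2.86 to 5.38 CPM (log2 fold change 0.90 ± 0.18). Mir5125, a microRNA gene of which 79 bases lie within Srrm2 on the same strand, rose from 11.1 to 16.3 CPM (0.54 ± 0.13). Whether these reads came from the host genes was not tested.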
